A study of Tursiops truncatus with 17 samples.

Results

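The libraries described here are the 8 that carry the treatment label non-bloom season, out of 17 in the series, and each comes from the cerebral cortex of a different bottlenose dolphin (Tursiops truncatus). The 8 were grouped by that label and not by a measured value. The choice of this group, the gene lists and the rules was made with earlier results of these data known. The 8 libraries share a wild-type genotype label, a tissue label of cerebral cortex and a source in frozen archived necropsy tissue, with 1 library per animal. About 100 mg of cortex per dolphin was extracted and messenger RNA was sequenced, with a median RNA integrity number of 9.1 (confidence interval 8.9 to 9.5) stated for all 17 samples. Gene positions are printed as the files list them, and the build they refer to is not stated. The labels used here also do not state the cortical area, the share of grey and white matter in each piece, age, sex or the interval between death and freezing. Dolphins are numbered 1 to 8 as in the source names, and no season was compared with another.

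The cerebral cortex mixes several kinds of cell, and a bulk library adds their transcripts together. Excitatory neurons release glutamate and carry signals over long distances, and inhibitory interneurons make GABA with the enzymes encoded by GAD1 and GAD2. Oligodendrocytes wrap axons in myelin, astrocytes take up glutamate and potassium and line the vessels with their end feet, and microglia are the resident macrophages. Endothelium, pericytes, smooth muscle, fibroblasts and blood in the vessels add smaller amounts. In bulk samples, fewer cells of a type and less RNA per cell cannot be told apart.

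The 8 libraries held 12346713 to 15635292 reads in genes (13992634 ± 1193481, SD, n = 8), or 111941075 in all. Values are given in CPM, the usual scaling of a gene's reads to the size of its library, here with the authors' adjustment of that size, so 3 reads were worth 0.158 to 0.238 depending on the library, and a gene with 0 of all reads can hold at most 0.0268 CPM. These limits, and the intervals below, cover counting error only. No pair of libraries matched within sampling noise: the closest, dolphins 2 and 8, had a chi-square of 17.1 per gene. Over the 13178 genes with a mean of at least 1, log2 levels of any pair of libraries correlated at 0.931 to 0.983 across genes, which are not independent replicates. No label gives a batch or date, so no batch was tested.

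Transcripts of the mitochondrial genome took 9.68% of the reads in dolphin 5 (95% exact binomial interval 9.67% to 9.70%) and 22.1% in dolphin 1 (22.1% to 22.1%), with the other 6 libraries between them. COX1, a subunit of cytochrome c oxidase, held 58.4% to 69.4% of these reads. Per kilobase of its span, COX1 (position 5363 to 6913 of the mitochondrial sequence in the files) had a mean of 50040 CPM, COX3 had 18465, COX2 had 7136 and ND4 had 6785. ND1 had 2068 per kilobase, whereas its neighbour ND2 (position 3937 to 4978) had 9.68 and ND6, which mammals encode on the opposite strand to the other protein genes, had 2.89. The ribosomal RNA gene at position 73 to 1046 had 1231 per kilobase and the second, longer ribosomal gene at position 1114 to 2690 had 0.503. Of 22 mitochondrial transfer RNA genes, 18 had no read. COX1 was 155795 CPM in dolphin 1, 78271 in dolphin 6, the next highest, and 52547 in dolphin 7, the lowest.

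Among nuclear genes, the most reads went to a gene listed as FT. The rest of the top 20 included GAPDH and ALDOA of glycolysis, SNAP25 of the synaptic vesicle fusion machinery, CLU (clusterin, a secreted chaperone), the chaperones HSPA8 and HSP90AB1, MBP (myelin basic protein), SPARCL1 (hevin, secreted by astrocytes), EEF1A2 and EEF2 of translation, GNAS, APP (the amyloid precursor), CAMK2A, CHN1, PKM of glycolysis and the spectrins SPTBN1 and SPTAN1. These 20 genes took 5.66% to 6.81% of the reads outside the mitochondrial genome. GAPDH ranged from 2918 in dolphin 5 to 4697 in dolphin 1 with a median of 3569. Counts were not divided by gene length, so these ranks are shares of reads and set no order of level between genes. MBP was the most uneven of the 20, at an SD of 0.97 on the log2(value + 1) scale, and the other 19 had SDs of 0.17 to 0.49.

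Neuronal markers were present in all 8 libraries and varied about as much as other genes. All 12 pan-neuronal markers in the files passed the filter on low values, and the median SD of their log2 levels was 0.32 against 0.29 for all genes. SNAP25 (on scaffold_105800, 337678 to 366980, coordinates as in the files) ranged from 2387 in dolphin 7 through a median of 3380 to 4408 in dolphin 6. RBFOX3, which encodes the nuclear marker NeuN, ran from 159 through 230 to 343, with the same lowest and highest dolphins. The neurofilament genes, which build the axonal cytoskeleton, spread more: NEFH was 342 in dolphin 8, 639 at the median and 1273 in dolphin 6, and NEFM was 312, 573 and 1240 at the same places. Dolphin 6 was the highest library for 8 of the 12 markers, dolphin 7 the lowest for 6. The share of all genes highest or lowest in a given dolphin was not computed. Such counts, here and for the lists below, describe the list only.

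All 12 excitatory markers passed the filter. SLC17A7, the vesicular glutamate transporter of cortical neurons, was 459 in dolphin 5, 703 at the median and 1019 in dolphin 8. CAMK2A, the kinase of excitatory synapses, was 1487 in dolphin 3, 2286 at the median and 2904 in dolphin 4. Layer markers were read from upper to deep cortex: CUX2 at 95.7 to 166, RORB at 13.0 to 23.4, FEZF2 at 45.8 to 86.8, TLE4 at 25.4 to 42.6 and FOXP2 at 1.83 to 7.70. The 13 layer markers that passed had a median SD of 0.42 on the log2 scale, against 0.29 for all genes. None had an SD above 1, but 1.48% of all genes had, and 13 genes are too few to set against that share. Of 6 genes listed for von Economo neurons, the large spindle cells known from some cetacean and primate cortex, 5 passed, and VAT1L varied most, from 17.4 in dolphin 5 to 74.3 in dolphin 8. GABRQ, also on that list, reached at most 0.120.

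Interneuron markers did not all follow the same dolphins. GAD1 (on GeneScaffold_1724, 869722 to 907551) was 36.0 in dolphin 4, 143 at the median and 320 in dolphin 6, and GAD2 was 12.8, 63.8 and 104 with the same lowest and highest dolphins. The vesicular GABA transporter gene SLC32A1 was also lowest in dolphin 4, at 18.6, and highest in dolphin 6, at 73.7. The next lowest GAD1 level after dolphin 4 was 90.4, in dolphin 5. PVALB, the calcium-binding protein of fast-spiking basket cells, was 52.4 in dolphin 6 and 35.6 in dolphin 5, and 4.40 to 15.7 in the other 6.

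Other interneuron genes had a different order, among them the neuropeptide genes SST and CCK and the calretinin gene CALB2. SST was 35.9 in dolphin 5, 126 at the median and 259 in dolphin 1, CCK was 205 in dolphin 5, 478 and 934 in dolphin 1, and CALB2 was 22.1 in dolphin 5, 63.1 and 102 in dolphin 1. Of the 12 neuropeptide genes that passed, dolphin 1 was highest for 7 and dolphin 5 lowest for 8. CALB1, which encodes calbindin and marks many cortical interneurons in other mammals, was at 0.0624 to 0.676 in every library.

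**Figure D1:**
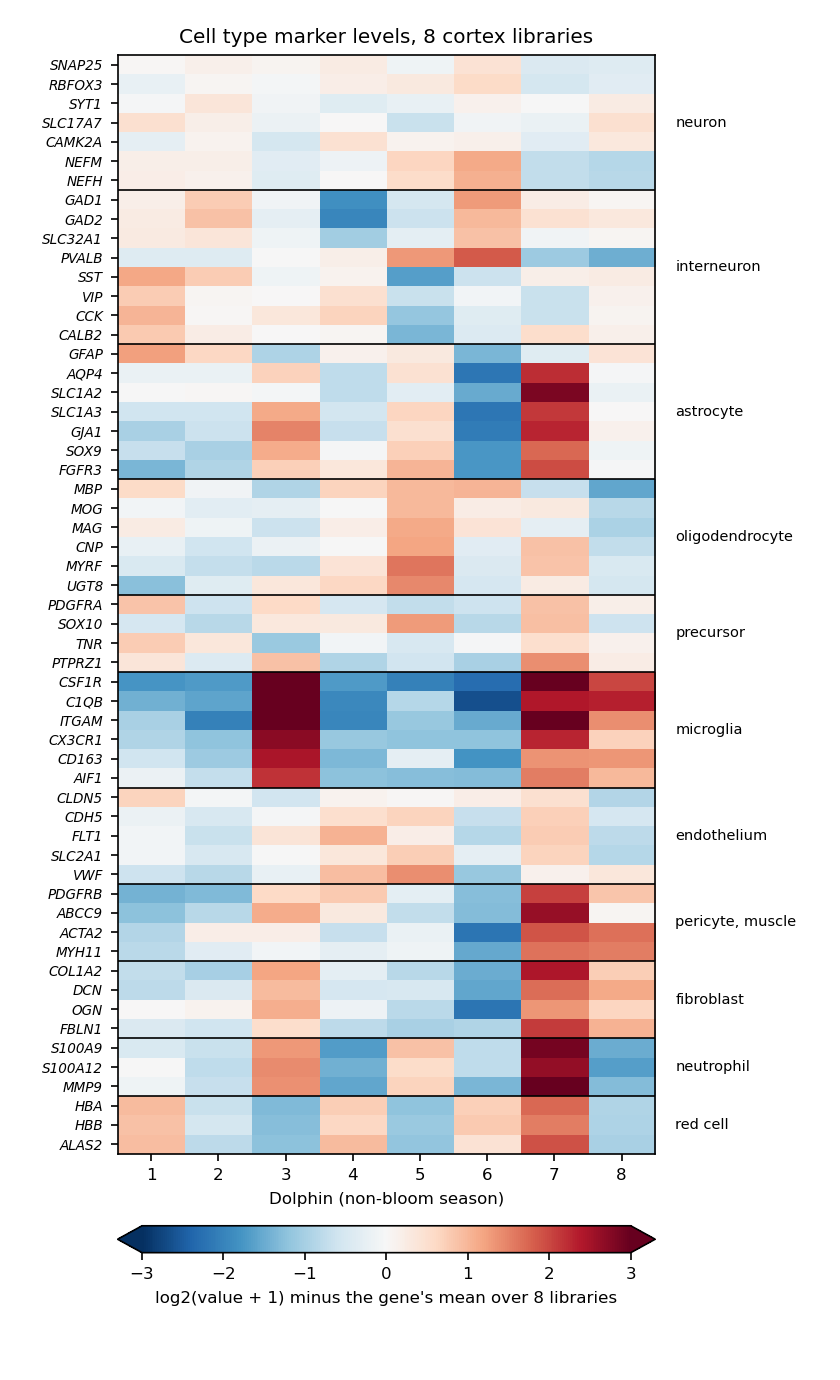
Cell type markers (rows, grouped by list) in the 8 non-bloom libraries (columns). Colour is log2(value + 1) minus that gene's mean over the 8 libraries, cut at 3 either way. Microglia rows are red in dolphins 3, 7 and 8 and blue in the others, most astrocyte rows are red in dolphin 7 and blue in dolphin 6, and most oligodendrocyte rows are reddest in dolphin 5.

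Astrocyte markers were uneven between dolphins. Of 12 in the files all 12 passed the filter and 7 had an SD above 1 on the log2 scale, against 1.48% of all genes. Dolphin 7 was highest for 11 of the 12 and dolphin 6 lowest for all 12, with no share over all genes computed beside these counts. The glutamate transporter SLC1A3 was 29.1 in dolphin 6, 113 at the median and 581 in dolphin 7, and its relative SLC1A2 was 9.17, 25.6 and 204. The water channel AQP4 of astrocyte end feet was 7.64, 35.1 and 181, and the gap junction gene GJA1 was 4.84, 20.6 and 120. GLUL, which encodes glutamine synthetase, spread less, from 456 to 1899. GFAP, the astrocyte intermediate filament (on GeneScaffold_1253, 44582 to 53195), kept another order: it was 232 in dolphin 6, 699 at the median and 1428 in dolphin 1, and in dolphin 7 it stood at 472, below the median. Dolphin 7 also had the highest summed levels of pericyte and smooth muscle (246), meningeal fibroblast (180), neutrophil (278) and red cell (880) markers of the 8 libraries, and dolphin 6 the lowest of the first pair of lists (24.5 and 24.0). Their part in the astrocyte values was not tested.

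Of 13 oligodendrocyte markers, all of which passed the filter, dolphin 5 was highest for 11. The myelin surface gene MOG was 39.1 in dolphin 8, 69.0 at the median and 141 in dolphin 5, and the transcription factor gene MYRF was 24.3 in dolphin 3, 31.7 and 134 in dolphin 5. MBP (on GeneScaffold_538, 493630 to 555154) had another order, and its 8 values from dolphin 1 to 8 were 3266, 2021, 1168, 3494, 4293, 4460, 1357 and 737. Dolphins 1, 4, 5 and 6 were at 3266 or more and dolphins 3, 7 and 8 at 1357 or less, with dolphin 2 between them. Dolphin 8 was lowest for 9 of the 13 markers. Precursor markers were read in every library: PDGFRA ran from 12.8 in dolphin 5 to 41.2 in dolphin 7, and GPR17, a receptor of precursors about to mature, was 2.30 in dolphin 2, 5.91 and 10.9 in dolphin 1.

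Microglia genes differed most between the libraries of all cell type lists, at a median SD of 1.46 on the log2 scale over the 10 that passed the filter. CSF1R, the receptor that microglia need to survive (on GeneScaffold_2575, 1236688 to 1266796), was 0.954, 1.08, 96.6, 1.06, 0.633, 0.382, 82.2 and 25.8 from dolphin 1 to 8. Dolphins 3, 7 and 8 were at 25.8 or more and the other 5 at 1.08 or less. The complement gene C1QB was 105, 42.3 and 39.7 in dolphins 3, 7 and 8 and 0.318 to 3.53 in the others. The integrin gene ITGAM was 37.4, 40.7 and 11.3 in those 3 and 0.144 to 1.35 in the others, and the scavenger receptor gene CD163 was 19.1, 8.37 and 8.15 against 0.0637 to 2.06. CX3CR1, the fractalkine receptor, was 14.1, 10.4 and 2.73 in dolphins 3, 7 and 8, with no read in dolphins 2, 5 and 6. TREM2 was at 3.87, 2.27 and 1.07 there and at most 0.287 elsewhere.

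Of the 15 genes on the microglia and macrophage list 11 are in the files and 10 passed the filter. The filter takes the mean over all 8 libraries. Genes such as ITGAM, at 0.144 to 1.35 in dolphins 1, 2, 4, 5 and 6, passed it only through dolphins 3, 7 and 8. The counts that follow are therefore descriptions and not tests. For all 10 that passed, dolphins 3, 7 and 8 were the 3 highest libraries, an arrangement found in 3.92% of all 13178 genes, and 9 had an SD above 1. The tenth, TYROBP, which encodes a signalling adaptor, ran only from 2.55 to 8.78. The summed level of the 11 markers was 5.54 to 14.7 in dolphins 1, 2, 4, 5 and 6 and 329, 242 and 110 in dolphins 3, 7 and 8. In these 5 libraries each of the 11 markers was at 3.66 or less, and the defining genes CX3CR1, P2RY12 and TREM2 at 1.19 or less, although the tissue label is cortex. Summed neutrophil markers were 117 and 278 in dolphins 3 and 7 but 14.7 in dolphin 8, and summed red cell markers were 104 in dolphin 3 and 140 in dolphin 8, of a range of 104 to 880 over the 8. Summed meningeal fibroblast markers were 120, 180 and 99.2 in dolphins 3, 7 and 8 and at most 72.3 in the others. The part of any of these in the microglia values was not tested.

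**Figure D2:**
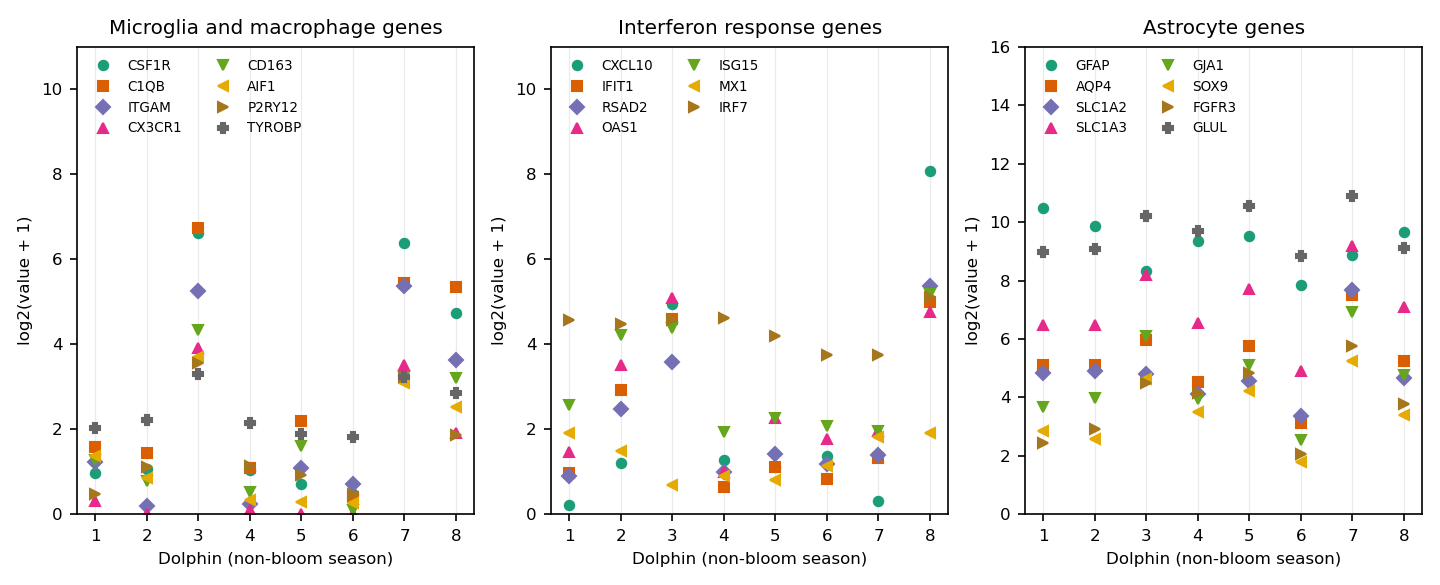
Levels, as log2(value + 1), of 8 microglia and macrophage genes, 7 interferon response genes and 8 astrocyte genes in each of the 8 non-bloom libraries. Each point is 1 gene in 1 library. Microglia genes are high in dolphins 3, 7 and 8, most interferon genes in dolphins 8 and 3, and most astrocyte genes in dolphin 7.

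Endothelial markers were steadier than microglia genes but less even than most genes. All 13 passed, with a median SD of 0.54 against 0.29 for all genes. None had an SD above 1, which 1.48% of all genes had. CLDN5, the tight junction gene of the blood-brain barrier, was 19.9 in dolphin 8, 39.5 at the median and 59.9 in dolphin 1, and VWF, made by endothelium, was 94.4 in dolphin 6, 203 and 547 in dolphin 5. Mural cells differed more. Dolphin 7 was highest for 7 of the 8 pericyte and smooth muscle markers that passed: the pericyte receptor gene PDGFRB was 1.83 in dolphin 1, 7.75 at the median and 30.3 in dolphin 7, and the contractile gene ACTA2 was 0.573 in dolphin 6, 6.23 and 25.7 in dolphin 7. Dolphin 8 followed at 21.7. Dolphin 7 was also highest for all 9 fibroblast markers, among them COL1A2 (0.0637 in dolphin 6, 1.11 at the median, 15.1 in dolphin 7) and DCN, the proteoglycan decorin (0.891, 3.05 and 16.6).

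Blood cell transcripts were present at unequal levels. The alpha globin gene HBA was 94.1 in dolphin 3, 270 at the median and 784 in dolphin 7, and dolphins 1, 4, 6 and 7 were at 391 or more while the other 4 were at 148 or less. HBB and ALAS2, the heme synthesis enzyme of red cell precursors, were highest in dolphin 7 and lowest in dolphin 3 too. The neutrophil calgranulin genes had dolphins 7, 3 and 5 on top: S100A12 was 112, 48.0 and 25.9 in these and 4.82 to 17.3 in the other 5, and S100A9 was 82.1, 27.0 and 19.7 against 2.56 to 7.23. MPO and ELANE, made in immature neutrophils, were at most 0.538 and 0.633. Lymphocyte markers were close to absent. CD3D, GZMA and GZMB had no read, CD3E reached 0.191, MS4A1 reached 0.120 and CD79A 0.107. CD3G (4.55 to 8.03) and JCHAIN (4.42 to 6.27) were the exceptions on their lists, and both were as even as most genes, with SDs of 0.24 and 0.16.

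All 8 libraries lacked reads for 4216 of the 21265 listed genes, and 14338 genes were read in every library. Among 16550 protein-coding genes, 936 (5.66%) had no read. Small RNA classes, which a poly(A) library is not built to hold, were mostly without reads: 870 of 1101 microRNA genes, 778 of 1001 small nuclear RNA genes, 716 of 734 ribosomal RNA genes and 452 of 802 small nucleolar RNA genes. Gene families were looked up after the values were seen. Of 33 HOX genes, which pattern the body axis behind the forebrain, 19 had no read and 0 passed the filter, and the highest was HOXD1 with a mean of 0.223. Of 15 olfactory receptor genes 13 had no read, and of 22 keratin genes 9 had none and 2 passed. Of other families, 12 of 13 SOX genes, 13 of 18 GABA-A receptor genes and 64 of 87 potassium channel genes whose symbols start with KCN passed. Of all 16550 protein-coding genes 12830 passed, and the GABA-A receptor and KCN counts are near that share.

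Markers of other tissues and brain regions ranged from no read to levels well above the filter. TTR, the main secretory product of choroid plexus, was read in 1 library only, at 0.0536 in dolphin 8. The hypothalamic peptide gene PMCH had no read, OXT and AVP were at 0.799 to 1.75 and 1.04 to 1.81, and the cerebellar Purkinje cell gene PCP2 was at most 0.374. However, 7 of the 9 genes on the cerebellum list that are in the files passed the filter. The summed level of that list was 24.9 in dolphin 6 to 50.9 in dolphin 7. On the striatum list 7 of 8 passed, with sums of 124 in dolphin 1 to 219 in dolphin 3. CHAT reached 0.0528, and TH, of catecholamine neurons, was 4.19 to 7.96. The dopamine receptor gene DRD1 was 10.6 to 28.2 and TCF7L2, high in thalamus, was 31.2 to 72.9, while GBX2, another thalamic gene, was at most 0.509. The liver genes FGA, FGG, APOH and TAT had no read. TF, which encodes transferrin and is also made by oligodendrocytes, was 340 in dolphin 8, 592 at the median and 1265 in dolphin 5. APOB was at or below 0.268 in 7 libraries and 5.05 in dolphin 4, where CLIC6, a choroid plexus gene, was 2.31 against 0.255 or less elsewhere. Muscle genes were led by MYH7, a slow myosin (7.19 to 42.9), TNNI3 (12.5 to 34.3) and MYBPC1 (7.24 to 31.9), whereas MYH1 and TNNT3 of fast muscle were at most 0.107 and 0.307. No marker of epithelium, lung, skin or fat passed the filter. Of 14 genes on a list reported as lost in cetaceans, AANAT, PON1, SLC6A18 and SEC14L3 had no read, and 4 passed: TAS1R1 (5.06 to 7.47), TAS1R3 (1.72 to 5.41), AMPD3 (1.66 to 7.32) and POLM (0.921 to 3.71).

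Interferon response genes, induced by antiviral signalling, were high in some libraries. All 10 in the files passed the filter and 5 had an SD above 1, against 1.48% of all genes. CXCL10, a chemokine that interferon induces, was 268 in dolphin 8 and 29.8 in dolphin 3, and 0.159 to 1.59 in the other 6. It passed the filter only through dolphins 8 and 3, so the counts above are a description. IFIT1 was 30.7 in dolphin 8, 23.3 in dolphin 3 and 6.53 in dolphin 2, and 0.561 to 1.49 in the other 5. RSAD2, which encodes viperin, was 40.1, 11.1 and 4.60 in dolphins 8, 3 and 2, against 0.874 to 1.69. The ubiquitin-like gene ISG15 was 35.1, 19.8 and 17.7 in the same 3 and 2.81 to 4.93 elsewhere. MX1 spread less, and stayed between 0.614 and 2.79 with dolphin 3 lowest. Dolphin 8 was highest for 8 of the 10 interferon genes. The microglia genes were high in dolphins 8 and 3 too, but in dolphin 7, where CSF1R was 82.2, CXCL10 was 0.239 and IFIT1 1.49.

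Other process lists varied less than the interferon genes, whose median SD was 0.96. It was 0.76 for acute inflammation and 0.54 for hypoxia, against 0.29 for all genes. Of the hypoxia genes 2 had an SD above 1, against 1.48% of all genes. Immediate early genes, which neuronal activity induces within minutes, were highest in dolphin 4 for 8 of the 15 that passed: FOS was 6.10 in dolphin 2, 15.0 at the median and 20.1 in dolphin 4, EGR1 was 63.7, 81.3 and 152 and ARC was 10.4 in dolphin 3, 18.6 and 38.8. Their median SD was 0.48. Of 12 acute inflammation genes in the files 6 passed: CD44, a receptor for hyaluronan, was 2.67 in dolphin 6, 7.62 at the median and 19.7 in dolphin 7, while IL6 reached 1.72 in dolphin 8 and CCL2 3.91 there, each at most 0.499 elsewhere. SERPINA3, an acute phase gene that reactive astrocytes express in other mammals, had no read in any library. All 12 hypoxia genes passed and dolphin 7 was highest for 6, with VEGFA, the vessel growth factor, at 5.41 in dolphin 8, 9.77 at the median and 48.0 in dolphin 7, and the hexokinase gene HK2 at 0.238 in dolphin 1, 1.32 and 14.5. The 12 heat shock entries had a median SD of 0.29, and dolphin 7 was lowest for 8 of them: HSPH1 was 292 there, 569 at the median and 651 in dolphin 1. The 16 circadian clock genes had a median SD of 0.30, and PER1 ran from 47.9 through 58.9 to 86.5. Housekeeping genes had a median SD of 0.23, and ACTB was at 1460 to 1789. Brain globins were even too, with NGB (neuroglobin) at 13.0 to 20.6 and CYGB (cytoglobin) at 11.1 to 24.3.

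Across the 13178 genes kept, the median SD of log2(value + 1) between dolphins was 0.29, against 0.08 expected from counting alone, and 90% of the genes were at or below 0.54. The SD exceeded the counting spread for 99.3% of genes, and 195 (1.48%) had an SD above 1. The common biological coefficient of variation that edgeR estimated from the recovered reads was 0.288. Among genes with a symbol and a mean of at least 5, the 20 with the largest SD were CXCL10 (2.75), CSF1R (2.68), C1QB (2.42), GBP1, ITGAM, C3, CD74, VCAM1, IFIT1, PTGS2, TGM3, the MHC class II gene listed as TUTR-DQB*, CCL14, MMP9, RSAD2, S100A9, OAS1, CD163, S100A12 and LYZ (1.45). CSF1R, C1QB, ITGAM, CD163 and LYZ are known from macrophages, CXCL10, GBP1, IFIT1, RSAD2 and OAS1 as interferon induced, and S100A9, S100A12 and MMP9 from neutrophils. Dolphins 3, 7 and 8 were the 3 highest for 7 of these 20, against 3.92% of all 13178 genes. Dolphins 2, 3 and 8 were so for 4, and dolphins 3, 5 and 7 for 4, arrangements whose share of all genes was not computed. The 20 were picked for their spread, and some, such as CD163, reached the mean of 5 only through their high libraries, so these counts are a description.

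Some variable genes followed other libraries. PTGS2, the inducible cyclooxygenase, was 41.9 in dolphin 8 and 39.0 in dolphin 5 and 0.764 to 6.82 in the others. VCAM1, an adhesion molecule of activated endothelium, was 108 in dolphin 8, 28.6 to 33.1 in dolphins 3, 5 and 7 and 1.72 to 9.29 in the rest. TGM3, a transglutaminase, was 65.4 in dolphin 7 and 0.748 to 8.60 elsewhere. The complement gene C3 and the MHC class II chaperone gene CD74 had the microglia order: C3 was 57.9, 34.3 and 14.3 in dolphins 3, 7 and 8 and 0.255 to 2.00 in the others, and CD74 was 89.4, 86.1 and 44.4 against 2.04 to 5.17. The evenest genes with a mean of at least 20 were TMEM189-UBE2V1, SSRP1, RAB7A, KDM5C, PRMT3, SRSF1, SQSTM1, USP7, NLGN3 and ADD1. Their SDs were 0.04 to 0.07, and the small GTPase gene RAB7A had 193 ± 6.51 (SD, n = 8).

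**Figure D3:**
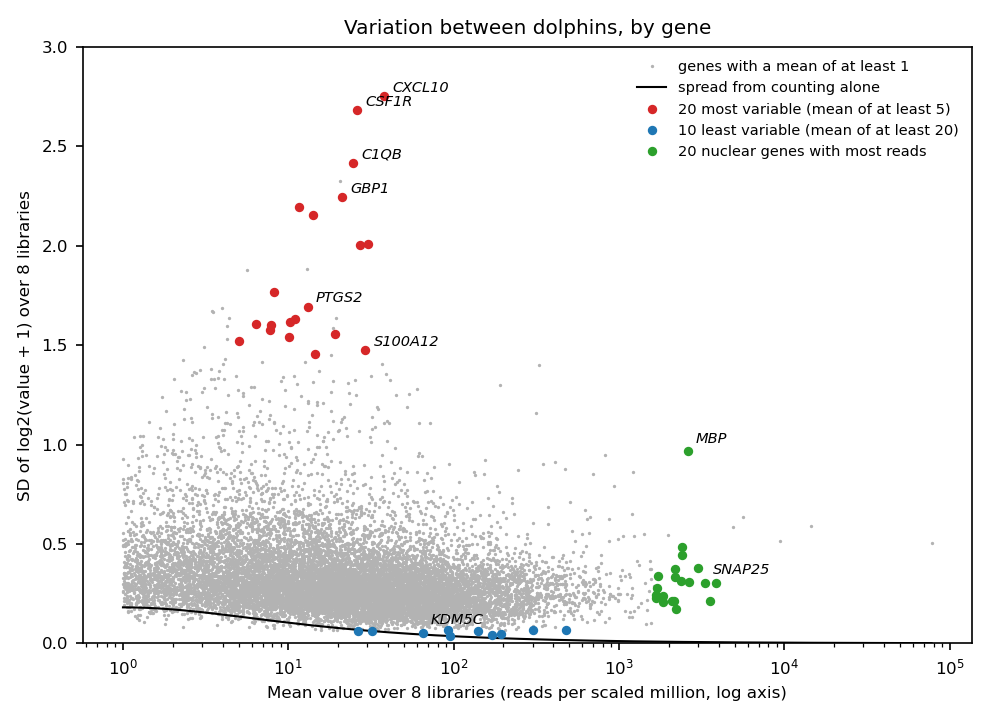
SD of log2(value + 1) over the 8 libraries against the mean value on a log axis, 1 point per gene for 13178 genes. The line is the spread that counting alone gives, red points are the 20 most variable, blue the 10 least variable and green the 20 nuclear genes with most reads. CXCL10 and CSF1R lie highest, at 2.75 and 2.68, and MBP is the most variable of the green points at 0.97.

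Principal components of the log2 levels spread the libraries out. Component 1 held 35.8% of the variance, component 2 held 19.9% and component 3 held 15.2%. On component 1, dolphin 7 had the highest score at 46.7, then dolphin 3 at 23.2 and dolphin 8 at 13.0, and dolphin 6 had the lowest at -34.3. Genes at its high end included CSF1R, C1QB, ITGAM, C3, CD74, VCAM1, CCL14, the astrocyte gene GJA1 and COL6A1. Those at its low end included MBP and BCAS1 of oligodendrocytes, PVALB, the potassium channel subunit gene KCNAB3, VWA7, TPBG, SCRT2, ATP2A3 and CPNE9. These genes took part in making the component, so their place on it is a description.

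Component 2 separated dolphins 3, 1 and 4 (25.8, 21.8 and 16.1) from dolphins 5, 6 and 7 (-24.3, -21.4 and -15.9). Its low end held the sodium channel subunit gene SCN4B, the potassium channel gene KCNA2, the vesicle genes SV2C and SYT2, the NMDA receptor gene GRIN2A, ST8SIA5, SLC24A2, PLXNA4, PLCXD2 and VWA7. SCN4B was 108 in dolphin 6 and 66.7 in dolphin 5, and 6.70 to 22.9 in the other 6, and SYT2, a vesicle calcium sensor, was 127 and 72.5 against 13.6 to 32.2. PVALB and NEFH were highest in the same dolphins. At the high end were CCK, OTOF, NECAB2, PRR32 and S100A4 beside CXCL10, IFIT1, C3, CSF1R and C1QB. OTOF was 2.10 and 2.11 in dolphins 6 and 5 and 9.71 to 27.8 in the other 6.

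**Figure D4:**
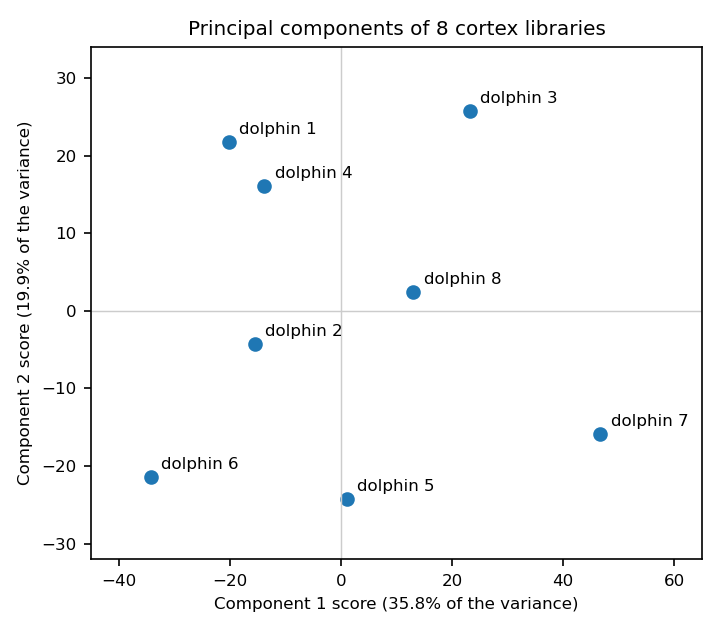
Scores of the 8 non-bloom libraries on component 1 (horizontal axis) and component 2 (vertical axis) of log2(value + 1) over 13178 genes, 1 point per dolphin. Dolphin 7 lies farthest right at 46.7 and dolphin 6 farthest left at -34.3.

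Which genes vary together was tested by fitting the level of every gene against that of a marker, for 6 markers, with limma across all 13177 other genes and Benjamini-Hochberg adjustment. The slope is the change in a gene's log2(value + 1) per unit of the marker's. With 8 dolphins only close relations can pass, and each p-value tests a slope against the scatter of these animals around the fitted line.

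With GAD1, 2 genes passed (0.0152% of those tested), both with slopes above 0. GAD2, the other GABA-synthesising enzyme, had a slope of 1.01 (SE 0.09, adjusted p = 0.00489, limma), with r = 0.978 over the 8 dolphins and 0.963 without the 2 farthest from the median of GAD1. BTBD11 (3.06 to 22.7) had a slope of 0.83 (SE 0.09, adjusted p = 0.0106, limma). The next 3, which did not pass, were SLC32A1, TMEM132C and the fast potassium channel gene KCNC2. Of the 15 other interneuron markers tested 1 passed, GAD2, 12 had slopes above 0 and 5 an unadjusted p under 0.05, against 6.11% of all genes, while PVALB had a slope of 0.11 (adjusted p = 0.972, limma) and CCK -0.18 (adjusted p = 0.912). Without dolphin 4 no gene passed, and without dolphin 2 or dolphin 6 only GAD2 did.

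With MBP, 8 genes passed (0.0607%), 7 with slopes above 0 (0.0531%) and 1 below (0.00759%). BCAS1, a gene of myelin-forming oligodendrocytes, had a slope of 0.93 (SE 0.07, adjusted p = 0.000499, limma) and ran from 104 in dolphin 8 to 598 in dolphin 6, with r = 0.992 over the 8 dolphins and 0.993 without the 2 farthest from the median of MBP. PAQR6, TP53INP2, the lysophosphatidic acid receptor gene LPAR1, PPP1R14A, SLC9A3R2 and AIF1L followed, with slopes of 0.47 to 0.76. The exception was PLEK, which encodes pleckstrin of platelets and leukocytes, at -0.55 (SE 0.08, adjusted p = 0.0441, limma), and it was highest in dolphin 8 at 81.5. None of the 12 other oligodendrocyte markers tested passed, although all 12 had slopes above 0 and 4 had an unadjusted p under 0.05, against 10.3% of all genes. MAG came closest (slope 0.62, adjusted p = 0.067, limma). All 10 microglia markers tested had slopes below 0 and unadjusted p under 0.05, as had 8 of 9 fibroblast markers, and none of either passed. Microglia genes such as CSF1R and ITGAM passed the filter on low values only through dolphins 3, 7 and 8, which are also the 3 lowest in MBP. The microglia count is therefore a description and not a test. The count was 29 without dolphin 7, 1 without dolphin 8 and 4 to 5 without dolphin 1, 4, 5 or 6, and edgeR on the recovered reads called 15.

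With CLDN5, 9 genes passed (0.0683%), all with slopes below 0: CXCL10 (-5.03, SE 0.60, adjusted p = 0.0299, limma), the peptide transporter gene TAP1, the death ligand gene TNFSF10, RSAD2, ISG20, GBP1, the RNA sensor gene IFIH1, and 2 genes that the files list without a symbol. The 7 named genes are known as interferon induced, and their high values lie in dolphins 8 and 3, the 2 libraries with the lowest CLDN5 (19.9 and 24.9). ISG20 was 0.159 to 1.06 in the other 6 libraries and CXCL10 0.159 to 1.59. Both reached the mean of 1 needed for testing only through dolphins 8 and 3, so their calls are a description. Of the 10 genes on the interferon list 2 passed, CXCL10 and RSAD2, 8 had slopes below 0, all 8 with an unadjusted p under 0.05, and 2 had slopes above 0. Of 12 other endothelial markers tested 0 passed, and of 4 red cell markers 0 passed, all 4 with slopes above 0 and unadjusted p under 0.05, against 2.16% of all genes. No gene passed without dolphin 3, 4 or 8, or with relative log expression scaling, 1 passed without dolphin 1, 2 or 5 or with no filter, 2 without dolphin 6, and edgeR called 17. Without both dolphins 3 and 8, the farthest from the median of CLDN5, r over the other 6 was -0.60 to -0.92 for the 9 genes. Among the dolphins left out in turn, only dolphin 7 left the count close to 9, at 8. The number of genes that pass thus depends on most of the dolphins, on the filter and on the scaling.

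With SNAP25, 0 genes passed (0.0%) by limma and 0 by edgeR, while 2178 (16.5%) had an unadjusted p under 0.05. Of 11 other pan-neuronal markers 9 had slopes above 0, 4 with an unadjusted p under 0.05. All 12 astrocyte markers had slopes below 0, 10 with an unadjusted p under 0.05, as had 7 of 9 fibroblast and 7 of 10 microglia markers. As with MBP, the microglia count is a description, since some of these genes passed the filter only through dolphins 3, 7 and 8. The genes with the smallest p included COX7A2, COX7A2L and COX5A of the respiratory chain, and YPEL3 with slopes above 0, and the complement proteases C1S and C1R, MYH11, ACTA2 and ALDH1L1 below 0, with adjusted p of 0.128 to 0.135 (limma). Without dolphin 8, 32 genes passed, and without dolphin 3, 8 did.

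With GFAP, 0 genes passed (0.0%) by limma and 0 by edgeR, and 275 (2.09%) had an unadjusted p under 0.05. None of the other 11 astrocyte markers was among these: the slope for AQP4 was 0.24 (adjusted p = 1.00, limma) and for GJA1 -0.16. With FOS, 0 genes passed (0.0%) by limma and 0 by edgeR, and 236 (1.79%) had an unadjusted p under 0.05. Of 14 other immediate early genes 12 had slopes above 0, and the 4 with an unadjusted p under 0.05 were EGR2, EGR4, JUNB and NR4A1. DUSP6, FYCO1, CPNE2, EGR2 and COL18A1 had the smallest p with a slope above 0.

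**Figure D5:**
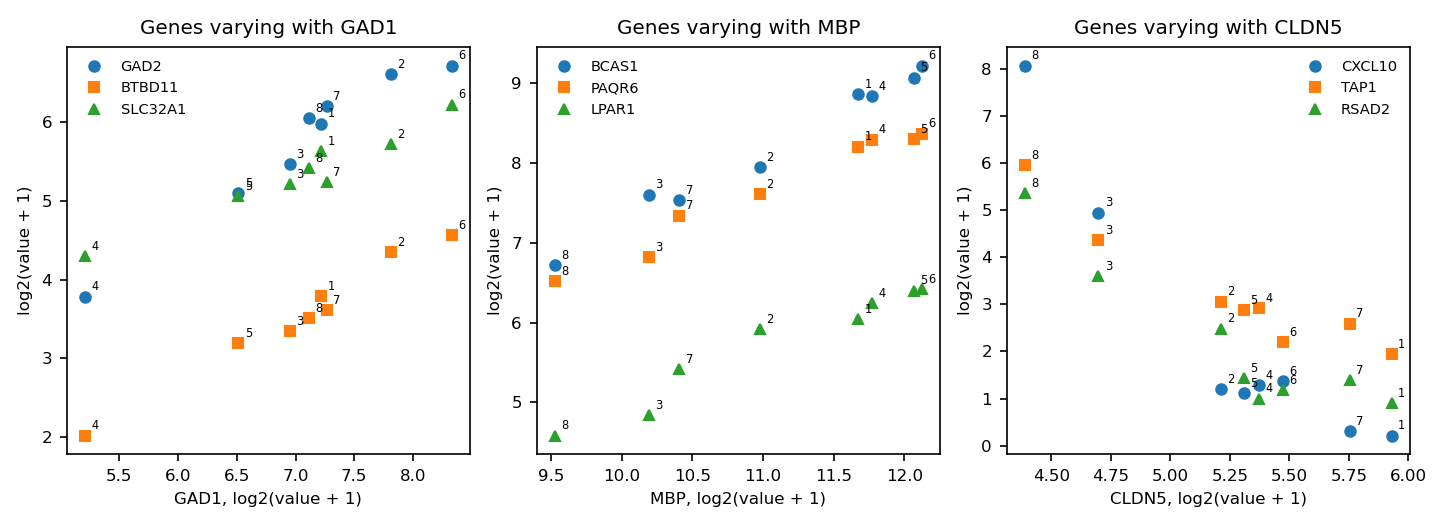
Levels, as log2(value + 1), of 3 genes each against GAD1, MBP and CLDN5, with the dolphin's number beside each point. GAD2 and BTBD11 climb with GAD1 from dolphin 4 to dolphin 6, BCAS1, PAQR6 and LPAR1 climb with MBP from dolphin 8 to dolphin 6, and CXCL10, TAP1 and RSAD2 are highest in dolphins 8 and 3, where CLDN5 is lowest.

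Levels of SNAP25, SLC17A7, GAD1, GFAP, MBP, PDGFRA, CSF1R, CLDN5, FOS, S100A12, RBM3 and the mitochondrial share were also compared in all 66 pairs over the 8 dolphins. No pair passed after adjustment. MBP and CSF1R had the smallest p of the 66 (exact permutation p = 0.012, adjusted p = 0.789, and 0.00456 and 0.301 by ranks), and dolphins 3, 7 and 8, the highest in CSF1R, were the lowest in MBP. The CSF1R libraries fall into separate clusters, so no pooled r is given for its 11 pairs. Among the pairs without CSF1R, GAD1 and the cold-inducible RNA-binding gene RBM3 had the smallest p, with r = 0.744 (exact permutation p = 0.0391, adjusted p = 0.954) and rho = 0.762 (exact permutation p = 0.0368, adjusted p = 1.00). Without dolphins 4 and 6, which lay farthest from the median of GAD1, r was 0.446, so this relation rests on those animals.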

How the data were processed

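Messenger RNA of frozen necropsy cortex was sequenced from 17 dolphins, and the 8 libraries labelled non-bloom season were used, grouped by that treatment label. Per the labels, libraries were made from 600 ng of RNA with 14 PCR cycles. The tools listed in the submitters' processing notes are STAR 2.5.2a and Trim Galore 0.6.1. The read counter, its strand setting, the build and the gene annotation are not named in the sources used here. The signal deposited by the authors is 1 normalised value per gene: 100% of the nonzero values were whole multiples of 1 read within 0.01, and the scaling equalled TMM over the 17 libraries (largest difference 0.0%). Reads of gene copies, overlapping or antisense genes cannot be told apart from these files.

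Genes with a mean of at least 1 were kept, which left 13178 of 21265, and SDs and components used log2(value + 1). limma 3.58.1 (trend) in R 4.3.3 fitted each gene against each of 6 markers, with Benjamini-Hochberg adjustment and 0.05 as threshold. edgeR 4.0.16 (quasi-likelihood) on the recovered reads was added after seeing the data. On simulated data for the GFAP slope over 13177 genes, 94.0% of genes with a slope of 1 and 100.0% with a slope of 2 were recovered. Of 202 calls there, 8 were false. The simulation gave each gene its own noise, with no variation shared between genes, so these rates need not hold for the real libraries. Permutation tests used scipy 1.17.1 and all 40320 pairings. The libraries, the 37 gene lists and the rules were chosen with earlier results of these data known. Named genes are the members of these lists, the 20 nuclear genes with most reads, all mitochondrial genes, the 20 most and 10 least variable, the 10 at each end of components 1 and 2, and the 5 of smallest p in each direction per marker, among genes with a symbol. Depth was 12346713 to 15635292 reads. Alternatives were another pseudocount, filter, scaling or tool and each dolphin left out. The 12 measures compared in pairs leave out HSPB1, which the files used here do not list. Levels per coding length were not computed, since no coding lengths were used here. A few genes that these rules select are not reported here.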

Additional observations from a re-analysis of the deposited data

Results flagged for a closer look

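For each of 207 genes and 5 library measures, the gap between the most extreme dolphin and the next was set against the range of all 8, on the log2(value + 1) scale for genes, by Dixon's 95% critical value for 8 samples, and chance alone flags about 1 in 20. There were 16 flags. The mitochondrial share of reads was 22.1% in dolphin 1, against 14.7% in the next library, and COX1 was 155795 there, against 78271. In dolphin 4, EGR1 was 152 against 84.7 in the next, APOB was 5.05 against 0.268 and CLIC6 was 2.31 against 0.255. In dolphin 7, SLC1A2 was 204 against 28.7 and TGM3 was 65.4 against 8.60. In dolphin 8, GBP1 was 150.2 against 10.3, CCL2 was 3.91 against 0.499 and IL6 was 1.72 against 0.120. The other flags rest on a few reads: TNNT3 at 0.307 in dolphin 3, CD3E at 0.191 in dolphin 6, and CD79A at 0.107 and TTR at 0.0536 in dolphin 8, MS4A1 at 0.120 in dolphin 7 and CHAT at 0.0528 in dolphin 5, each of the last 4 with no read in the other 7 libraries.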

How the results depend on the processing

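With a pseudocount of 0.1, a filter at a mean of 5, no filter, relative log expression scaling or edgeR, the counts of genes varying with SNAP25, GFAP and FOS stayed at 0. Without the filter, 1 gene varied with GAD1 and 1 with CLDN5. With relative log expression scaling 0 varied with CLDN5. With edgeR, chosen after seeing the data, 15 varied with MBP and 17 with CLDN5. The cause of these shifts was not tested. The median SD of log2 levels was 0.31 with the pseudocount of 0.1 and 0.27 with the filter at 5. Leaving out each dolphin in turn gave 0 to 32 genes with SNAP25, 0 to 3 with GAD1, 0 to 0 with GFAP, 1 to 29 with MBP, 0 to 8 with CLDN5 and 0 to 0 with FOS. In the same way the median SD ranged from 0.27 to 0.30, the share of component 1 from 32.5% to 40.7%, the genes without a read from 4272 to 4334 and the pairs that passed from 0 to 1 (1 without dolphin 8). Counting genes under 3 reads in every library gave 5527, and genes with a mean under 0.01 gave 4708, against 4216 without a read. Of the 19 genes called with a marker, 1 (BCAS1) passed in all 13 alternative settings. No paired analysis was possible because only 1 group was used and its dolphins have no partners in it. The rank of the most abundant genes per coding length, over 20 or 50 genes and by mean or median, was not run. Depth limits genes near 3 reads, which correspond to values of 0.158 to 0.238.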
